A study of Homo sapiens with 16 samples.

Results

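Nonsense-mediated decay (NMD) removes transcripts that carry a premature stop codon, and some normal transcripts with long or intron-containing 3′ ends. The helicase UPF1 is recruited to a terminating ribosome and is activated through UPF2 and UPF3B, which link it to the exon junction complex left behind by splicing. SMG1, held in check by SMG8 and SMG9, phosphorylates UPF1, and phosphorylated UPF1 recruits SMG6, an endonuclease, and SMG5, which connects to deadenylation and decapping. Several of these factors are themselves encoded by NMD-sensitive transcripts, and UPF3A is a UPF3B paralog with a weaker or opposing role.

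The genes described here were UPF1, UPF2, UPF3A, UPF3B, SMG1, SMG5, SMG6, SMG8 and SMG9. They were taken by symbol, by a rule that used no measured value, and make up 9 of the 58676 gene identifiers in the files. Earlier results of these data were known when the members and the gene lists below were chosen. All 9 passed the filter on low counts in every fit. In GENCODE on GRCh38 they lie at chr19:18831959-18868230 (UPF1), chr10:11920022-12043170 (UPF2), chr13:114281601-114305817 (UPF3A) and chrX:119834022-119852998 (UPF3B). SMG1 lies at chr16:18804860-18926408, SMG5 at chr1:156249224-156282825, SMG6 at chr17:2059839-2303785, SMG8 at chr17:59209400-59215239 and SMG9 at chr19:43727983-43754962. The RNA came from 2 human cancer lines, A549 from lung and SUM159 from a triple-negative breast tumour. Cells of each line were untreated, received 2 µM palbociclib (an inhibitor of CDK4 and CDK6), received 3 µM indisulam (a sulfonamide that directs the splicing factor RBM39 to degradation), or received both drugs, each for 16 h. The 16 libraries form 8 groups of 2. Whether the untreated cells received a vehicle is not stated, and the study calls the duplicates technical. The p-values below therefore measure only the spread between these libraries.

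Gene counts ran from 18306636 to 34075588 per library. AKR1B10 lay between 4595 and 7918 CPM (counts scaled to a common library size after TMM normalization, the trimmed mean of M-values, within each line) in A549 and between 2.73 and 4.65 CPM in SUM159, and VIM between 699 and 930 CPM in A549 and between 2755 and 4144 CPM in SUM159. CDKN2A, taken here as absent from A549 and present in SUM159, went the other way, with 1.35 to 2.48 CPM in A549 and 0 to 0.0482 CPM in SUM159. The study describes A549 as lacking p16, the CDKN2A product. It also reports an increase of p16 protein in treated SUM159. That protein result came from a longer treatment at lower doses and does not compare directly with these mRNA values. The reason for the conflict in CDKN2A was not tested. In SUM159 ESR1 did not exceed 0.796 CPM, but ERBB2, also taken here as low, lay between 98.4 and 145.4 CPM. PTPRC reached 4.54 CPM and COL3A1 9.24 CPM in SUM159. The share of reads in no annotated feature lay between 3.89% and 4.57% in untreated libraries between 4.17% and 5.45% with palbociclib, between 5.70% and 6.08% with indisulam and between 4.83% and 6.78% with both, and its part in the results below was not tested. Fewer cells and less RNA per cell cannot be told apart in such libraries.

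The members were all well detected, and their order differed little between the lines. Per kilobase of annotated exon, SMG5 was highest in untreated A549, at 21.8 ± 0.544 CPM per kb (SD, n = 2). It was followed by UPF2 at 14.5, UPF3B at 13.3, UPF1 at 10.8, SMG8 at 7.54, UPF3A at 6.24, SMG1 at 6.06, SMG9 at 5.85 and SMG6 at 4.16 CPM per kb. The replicates of UPF3A overlapped those of SMG1, and those of SMG1 overlapped those of SMG9. In untreated SUM159, SMG5 again led at 25.5 ± 0.447 CPM per kb, ahead of UPF3B at 20.1, UPF1 at 15.8, UPF2 at 12.9 and SMG8 at 12.3 CPM per kb. SMG6 was lowest there too, at 4.23 CPM per kb. Exon lengths are unions over annotated transcripts, so a level per kilobase is lowered for a gene with many unused exons. Levels per kilobase used 1 scaling of all 16 libraries, unlike the CPM of each library, which were scaled within each line.

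Untreated SUM159 had more SMG8, UPF3B, UPF1 and SMG5 mRNA than untreated A549. SMG8, the SMG1 inhibitor, was higher by 0.70 ± 0.0652 on the log2 scale (SE, adjusted p = 5.6e-10, edgeR quasi-likelihood test with Benjamini-Hochberg adjustment, as are all adjusted p-values below). This difference used 1 scaling of all 16 libraries. Scaled within each line, SMG8 measured 26.7 and 27.9 CPM in A549 and 48.9 and 48.4 CPM in SUM159. Such CPM do not compare exactly between the lines. The differences were 0.59 ± 0.0595 for UPF3B, 0.56 ± 0.0484 for UPF1 and 0.23 ± 0.0493 for SMG5. UPF3A was higher by 0.19, SMG9 lower with a log2 difference of -0.24 and UPF2 lower with -0.17, and these 3 calls were each lost under at least 1 alternative. Thus 7 of 9 members differed, against 76.3% of the 17764 genes tested. UPF2 was at -0.07 with total-count scaling and at -0.03 without untreated A549 replicate 2, and its call also ended without palbociclib replicate 1, indisulam replicate 2 or either combination library of A549. SMG9 was at -0.12 without untreated A549 replicate 1. Its call also ended with total-count scaling, and without untreated replicate 2 or indisulam replicate 2 of A549.

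The start-site regions of 3 members share a sequence, shown here as a feature that the choice of members did not use. RefSeq (GRCh38.p14) gave a window for 8 members, with none for SMG8. The 8-base element TCGCGAGA, searched on both strands and chosen after the sequences were seen, occurred in the 250 bases before the start of UPF3A, UPF3B and SMG5, and in 1.03% of the 35116 windows of that length. E2F, NRF1, ETS and ATF4 motifs were also searched, without a match in any member. An E-box matched in UPF2, and a CCAAT box, present in 32% of windows, in UPF1, UPF2, UPF3B and SMG5. An element picked in this way gives no test of enrichment. Each stretch below is 100 bases, 5′ to 3′ on the gene's strand, with the element in capitals on either strand and overlapping copies merged. The UPF3A stretch is chr13:114281501-114281600 (plus strand), the UPF3B stretch chrX:119853030-119853129 (minus strand) and the SMG5 stretch chr1:156282828-156282927 (minus strand), all upstream of the first exon.
UPF3A: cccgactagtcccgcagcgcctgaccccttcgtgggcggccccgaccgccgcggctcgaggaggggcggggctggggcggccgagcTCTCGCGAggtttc
UPF3B: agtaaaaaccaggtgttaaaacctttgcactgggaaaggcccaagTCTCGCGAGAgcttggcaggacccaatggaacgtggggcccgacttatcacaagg
SMG5: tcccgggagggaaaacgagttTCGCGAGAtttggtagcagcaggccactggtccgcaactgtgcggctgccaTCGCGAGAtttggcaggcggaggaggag
A match is a description of these letters and names no bound factor. No relation between the element and the drug responses was tested.

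**Figure D1:**
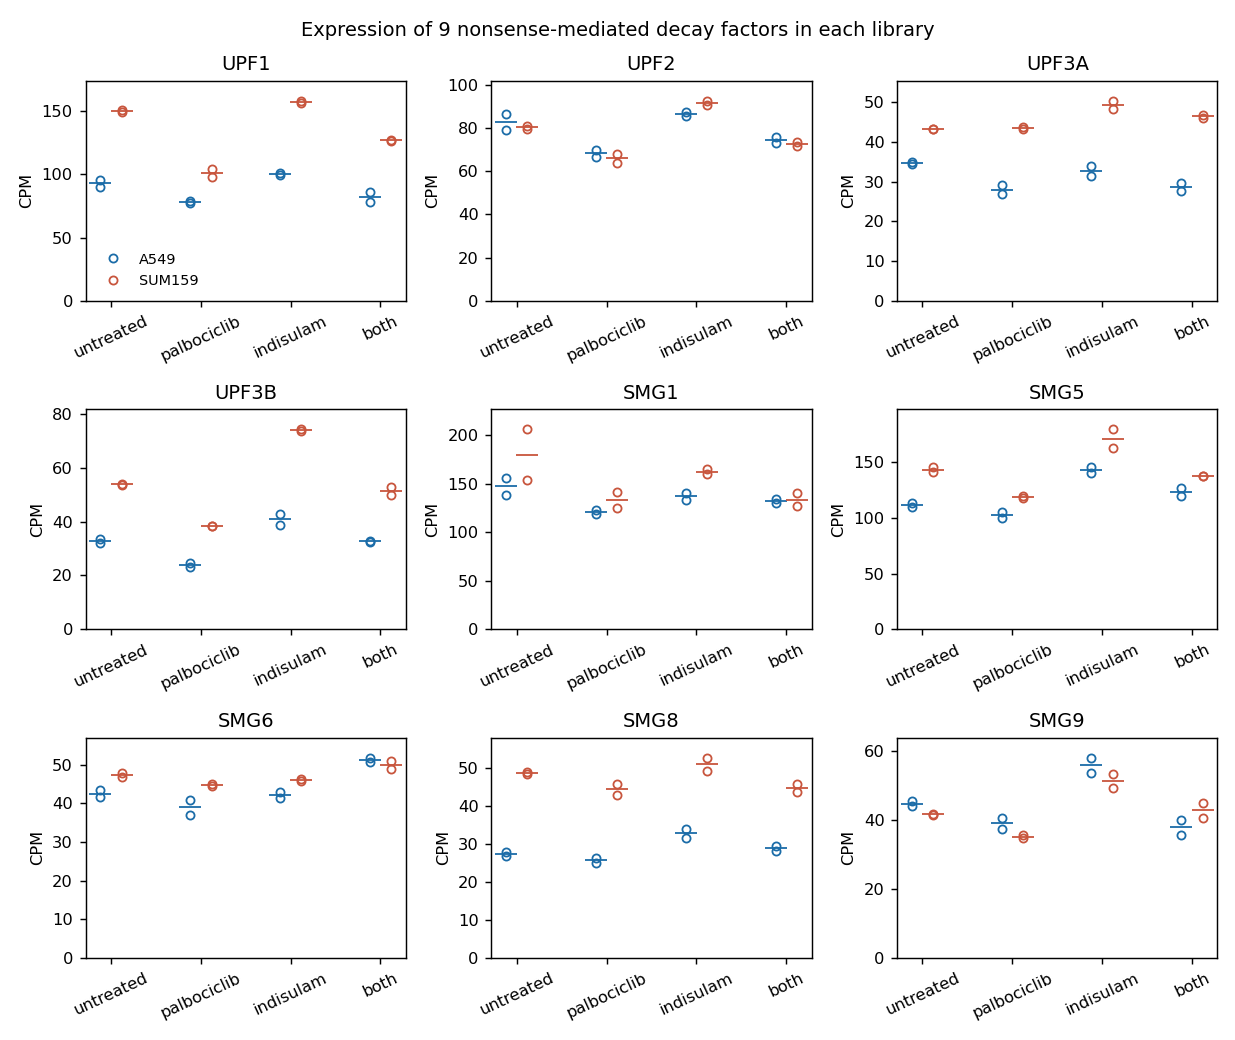
CPM (TMM-scaled within each line) of each of the 9 genes in every library, with A549 in blue and SUM159 in red. Each circle is 1 library and each dash the mean of 2. Heights do not compare exactly between the lines. UPF3B lies lower with palbociclib than in untreated cells and higher with indisulam in both lines, and 2 untreated SUM159 libraries stand apart for SMG1.

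Palbociclib lowered the surveillance factors UPF1, UPF2 and UPF3B and the kinase SMG1 in both lines. In A549, 6 of 9 members fell and none rose, against 21.1% lower and 22% higher among the 15744 genes tested. In SUM159, 7 of 9 fell and none rose, against 29% lower and 25.5% higher among 16080. The median log2 change over the members was -0.25 in A549 and -0.27 in SUM159, against 0.03 and 0.02 over all genes tested. With total-count scaling the median of all genes shifted by 0.105 in SUM159, and UPF1, UPF2, UPF3B, SMG1 and SMG5 still fell there, UPF2 by 0.18 and SMG5 by 0.16.

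UPF1 measured 95.7 and 90.2 CPM in untreated A549 and 77.4 and 78.8 CPM with palbociclib. In SUM159 it measured 149.1 and 150.8 CPM untreated and 97.6 and 103.9 CPM with palbociclib. The treated libraries lay below the untreated ones in both lines, with log2 changes of -0.25 ± 0.0541 (SE, adjusted p = 0.0018) and -0.57 ± 0.0403 (adjusted p = 2.8e-09). UPF3B, the adaptor to the exon junction complex, went from 33.3 and 32.0 CPM to 24.6 and 23.2 CPM in A549, a log2 change of -0.46 ± 0.0692 (adjusted p = 1.0e-04). In SUM159 it went from 54.1 and 53.5 CPM to 38.4 and 38.2 CPM, a log2 change of -0.49 ± 0.0501 (adjusted p = 2.9e-07). UPF2, which bridges UPF1 and UPF3B, fell by 0.28 on the log2 scale in both lines.

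SMG1 fell from 138.7 and 156.1 CPM to 123.1 and 119.1 CPM in A549, a log2 change of -0.28 ± 0.0548 (adjusted p = 7.5e-04). In SUM159 the untreated libraries were 153.4 and 205.8 CPM, apart from each other, and palbociclib gave 124.8 and 141.6 CPM. The change of -0.43 ± 0.0912 there (adjusted p = 7.2e-04) became -0.20 without untreated SUM159 replicate 2 and -0.62 without replicate 1, and stayed past the threshold. Reads of SMG1 may be shared with its pseudogenes on chromosome 16, of which 7 were matched and 5 tested. The highest of them, SMG1P7, did not exceed 6.42 CPM. None rose or fell with palbociclib except SMG1P1 in A549, with a log2 change of -0.53 (adjusted p = 0.032), a call lost with DESeq2 and with total-count scaling. With indisulam SMG1P5 rose by 0.93 in A549 and 0.77 in SUM159, and SMG1P7 by 0.79 and 0.48, and of these only SMG1P7 in A549 kept its call with DESeq2. With both drugs SMG1P5 rose by 0.92 in A549 and 1.15 in SUM159, and kept its call with DESeq2 in both. SMG1P1 fell by 0.46 with both drugs in SUM159, a call lost with DESeq2 and with total-count scaling.

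SMG5, the adaptor for decapping and deadenylation, fell in SUM159 from 145.4 and 141.0 CPM to 119.9 and 117.8 CPM (log2 change -0.27 ± 0.0455, adjusted p = 8.5e-05). In A549 its change of -0.12 ± 0.0479 did not pass (adjusted p = 0.058). SMG9 fell in both lines, by 0.19 in A549 and 0.24 in SUM159, and lost its call with total-count scaling in both. The A549 call was also lost with DESeq2 and without either untreated library or palbociclib replicate 1. SMG8 was at -0.09 ± 0.0695 in A549 (adjusted p = 0.33), and its SUM159 call of -0.14 (adjusted p = 0.046) was lost under 14 alternatives. SMG6, the endonuclease, did not pass in either line.

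With palbociclib UPF3A fell in A549 from 34.5 and 34.9 CPM to 29.1 and 26.8 CPM (log2 change -0.32 ± 0.0689, adjusted p = 0.0019), and in SUM159 it measured 43.4 and 43.3 CPM untreated and 43.7 and 43.2 CPM with palbociclib (log2 change 0.00 ± 0.0506, adjusted p = 0.96). In the fit of all 16 libraries, with its own scaling, the difference between the lines was 0.42. The median difference over all genes was 0.08 in that fit and -0.02 with DESeq2. The UPF3A difference lost its call with DESeq2 and without either untreated library or palbociclib replicate 2 of A549, and was 0.21 without the last of these. The UPF3B to UPF3A count ratio within a library, which needs no scaling, was 0.966 and 0.916 in untreated A549 and 0.844 and 0.866 with palbociclib. In SUM159 it was 1.25 and 1.23 untreated and 0.877 and 0.883 with palbociclib.

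**Figure D2:**
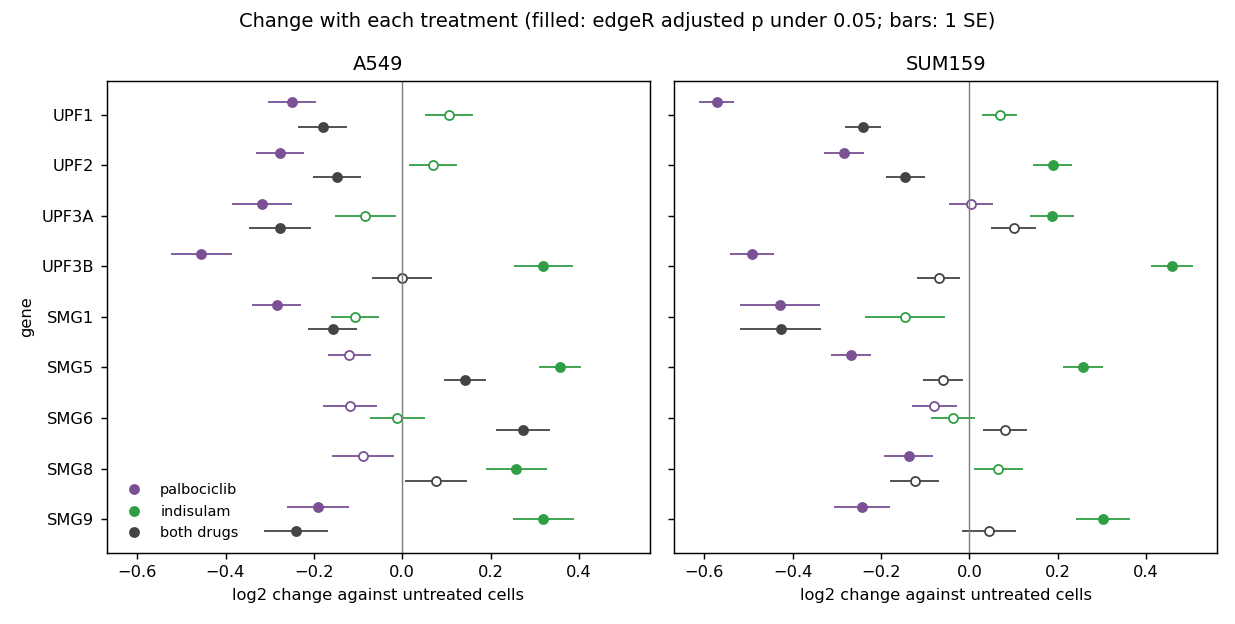
Log2 change of each gene against untreated cells in A549 (left) and SUM159 (right), with purple for palbociclib, green for indisulam and grey for both drugs; bars are 1 SE and filled circles passed an adjusted p of 0.05. No filled purple circle lies above 0 and no filled green circle lies below it.

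Indisulam raised UPF3B, SMG5 and SMG9 in both lines, and no member fell past the threshold, apart from 1 in SUM159 when genes were not filtered. In A549, 4 of 9 members rose, against 23.3% higher and 25.9% lower among all genes tested. In SUM159, 5 of 9 rose, against 21.9% higher and 24.9% lower. The medians over the members were 0.11 and 0.19, with 0.01 over all genes in both lines.

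UPF3B rose to 42.6 and 38.9 CPM in A549 (log2 change 0.32 ± 0.0662, adjusted p = 0.0011) and to 73.6 and 74.2 CPM in SUM159 (log2 change 0.46 ± 0.0474, adjusted p = 6.8e-07). SMG5 rose from 109.6 and 113.5 CPM to 139.8 and 145.8 CPM in A549 (log2 change 0.36 ± 0.0475, adjusted p = 2.5e-05). In SUM159 it rose to 162.5 and 179.3 CPM, a log2 change of 0.26 ± 0.0449 (adjusted p = 1.7e-04). SMG9, partner of SMG8, rose from 45.58 and 43.96 CPM to 53.7 and 58.1 CPM in A549 and from 41.4 and 41.9 CPM to 49.2 and 53.3 CPM in SUM159, with log2 changes of 0.32 ± 0.0686 and 0.30 ± 0.0608. In every one of these 6 pairs of groups the indisulam libraries lay above the untreated ones.

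SMG8 rose in A549 from 26.7 and 27.9 CPM to 31.5 and 33.8 CPM (log2 change 0.26 ± 0.0688), a call lost without untreated replicate 1 or indisulam replicate 2. UPF2 rose in SUM159 by 0.19 ± 0.0443 (adjusted p = 0.0022), and so did UPF3A by 0.19 ± 0.0505 (adjusted p = 0.0060). The UPF3A call was lost with DESeq2 and without indisulam SUM159 replicate 2. The UPF3B to UPF3A count ratio rose to 1.25 and 1.23 in A549 and to 1.52 and 1.48 in SUM159, all above the untreated ratios of the same line. UPF1, SMG1 and SMG6 did not pass in either line. Their changes were 0.11 ± 0.0537, -0.11 ± 0.0548 and -0.01 ± 0.0621 in A549 and 0.07 ± 0.0395, -0.15 ± 0.0908 and -0.04 ± 0.0506 in SUM159.

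**Figure D3:**
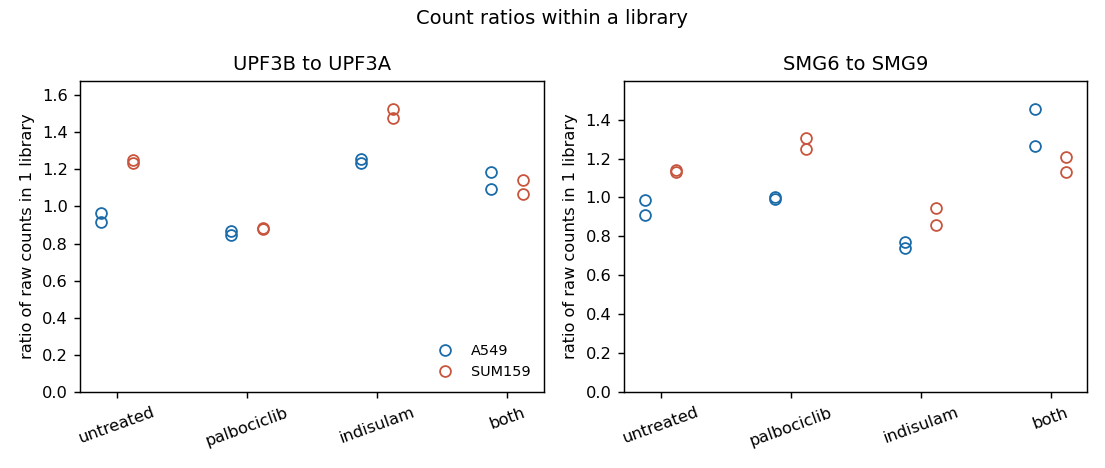
Ratio of the raw counts of UPF3B to UPF3A (left) and of SMG6 to SMG9 (right) in each library by treatment, with A549 in blue and SUM159 in red; each circle is 1 library. The UPF3B to UPF3A ratio is lowest with palbociclib and highest with indisulam in both lines.

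With both drugs, the group means of most members lay between those of the single drugs. In A549, 5 members fell and 2 rose against untreated cells, with 30.4% lower and 27.4% higher among all genes tested. In SUM159, 3 fell and none rose, with 33.1% lower and 32.2% higher. These balances depend on the scaling. With total-count scaling 1 fell and 2 rose in A549, and 1 fell and 3 rose in SUM159, where that scaling raised the median of all genes by 0.148. With all 16 libraries in 1 fit 2 fell and 2 rose in SUM159. UPF3B measured 32.9 and 32.3 CPM in A549 and 49.96 and 52.68 CPM in SUM159, with log2 changes of -0.00 ± 0.0683 and -0.07 ± 0.0487 that did not pass. Its changes against palbociclib were 0.45 ± 0.0679 and 0.42 ± 0.0485, and against indisulam -0.32 ± 0.0650 and -0.53 ± 0.0458, all past the threshold.

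UPF1 was at 86.2 and 77.9 CPM in A549 and 127.1 and 126.6 CPM in SUM159. Its log2 changes against untreated cells were -0.18 ± 0.0547 (adjusted p = 0.011) and -0.24 ± 0.0398 (adjusted p = 4.7e-05). Both calls were lost with total-count scaling, at -0.09 in each line, and the A549 call also without untreated replicate 1 or combination replicate 2. SMG1 fell in SUM159 to 140.1 and 126.7 CPM, a change of -0.43 ± 0.0914 that became -0.21 without untreated replicate 2 and kept its call. UPF3A fell in A549 to 27.7 and 29.5 CPM (log2 change -0.28 ± 0.0704, adjusted p = 0.0036) and was at 46.8 and 46.1 CPM in SUM159, a change of 0.10 ± 0.0504 that did not pass (adjusted p = 0.092).

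UPF2 fell by 0.15 in each line. The A549 call was lost under 6 alternatives, among them leaving out untreated replicate 2, either indisulam library or combination replicate 1. The SUM159 value turned to 0.00340 with total-count scaling, and its call was also lost without untreated replicate 2 or combination replicate 1. In A549 SMG1 fell by 0.16, SMG9 fell by 0.24 and SMG5 rose by 0.14. These 3 calls were lost under 5, 3 and 3 alternatives, among them leaving out untreated replicate 2 or combination replicate 1 for SMG1, untreated replicate 1 or combination replicate 1 for SMG9, and untreated replicate 1 or combination replicate 2 for SMG5. SMG5 was at -0.06 ± 0.0452 in SUM159 and did not pass. Without combination replicate 1 of A549, SMG9 was at -0.15 and its call was lost.

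SMG6 rose with the combination in A549 and did not pass with either single drug. It measured 41.6 and 43.5 CPM untreated, 37.1 and 40.8 CPM with palbociclib, 41.4 and 43.0 CPM with indisulam and 51.8 and 50.9 CPM with both. The log2 change was 0.27 ± 0.0613 against untreated cells (adjusted p = 0.0015), 0.39 ± 0.0594 against palbociclib and 0.28 ± 0.0598 against indisulam. It exceeded the added log2 changes of the 2 single drugs by 0.40 ± 0.0859 (adjusted p = 0.022), the only such call among the members in A549, where 3.53% of genes were called in either direction. That call was lost when either untreated library, palbociclib replicate 1 or either indisulam library was left out. In SUM159 SMG6 measured 51.0 and 49.0 CPM with both drugs, a change of 0.08 ± 0.0497 that did not pass, and 0.23 with total-count scaling, which did. HIC1, on the opposite strand, covers 22.9% of the exon sequence of SMG6, and the strand setting of the counting is not stated. HIC1 did not exceed 0.322 CPM in A549 and 3.09 CPM in SUM159.

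SMG9 stood opposite to SMG6 in A549. With both drugs it measured 35.6 and 40.2 CPM, below the indisulam libraries, a change against indisulam of -0.56 ± 0.0688 (adjusted p = 1.6e-05). Its departure from the added single-drug changes was -0.37 ± 0.0981 and did not pass (adjusted p = 0.054). The SMG6 to SMG9 count ratio was 1.45 and 1.27 with both drugs, 0.912 and 0.988 untreated and 0.771 and 0.740 with indisulam in A549. In SUM159 the ratio with both drugs, 1.13 and 1.21, spanned the untreated 1.13 and 1.14. In SUM159 the member that departed from the sum was UPF1, by 0.26 ± 0.0561 (adjusted p = 0.014), where 4.38% of genes were called, a call lost without either untreated library, either indisulam library or combination replicate 2.

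Against palbociclib alone, the combination raised SMG6, UPF3B and SMG5 in A549 (3 of 9, with 23.7% of genes higher; 6 of 9 with total-count scaling or DESeq2 size factors). In SUM159 it raised UPF1, UPF2, UPF3B, SMG5, SMG6 and SMG9 (6 of 9, with 23.4% higher). SMG5 was higher by 0.26 ± 0.0472 in A549 and 0.21 ± 0.0446 in SUM159. Against indisulam alone, 7 members were lower and 1 higher in A549, with 20.1% of genes lower and 18.6% higher, and 7 lower in SUM159, with 28% lower. UPF2 had changes of -0.22 ± 0.0531 and -0.33 ± 0.0433. The A549 calls of SMG8 and UPF3A against indisulam were lost under 10 and 6 alternatives, and UPF3A was at -0.13 without combination replicate 1. In SUM159 the calls of SMG1 and SMG8 against indisulam were lost under 5 and 4, and those of SMG6 and UPF2 against palbociclib under 4 each. UPF2 was at 0.09 against palbociclib without palbociclib replicate 1 of SUM159.

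UPF3A differed in its response between the lines. In a fit of all 16 libraries its response in SUM159 exceeded that in A549 by 0.44 ± 0.0856 with both drugs (adjusted p = 3.0e-04), 0.42 ± 0.0845 with palbociclib and 0.27 ± 0.0844 with indisulam. The palbociclib and indisulam calls were both lost with DESeq2 and without either untreated library of A549. Differences of response were called for 12.8%, 15% and 30.9% of genes with palbociclib, indisulam and both. The median difference over all genes was 0.08 with palbociclib and 0.10 with both in this fit, against -0.02 and 0.01 with DESeq2. The combination difference of UPF3A kept its call under every alternative, and was 0.25 without combination replicate 1 of A549. UPF1 fell further in SUM159 with palbociclib, by a difference of -0.23 ± 0.0679 in the fit of all 16 libraries (adjusted p = 0.028). The fits per line gave -0.25 in A549 and -0.57 in SUM159. SMG9 differed by 0.35 ± 0.0994 with both drugs (adjusted p = 0.0085). The UPF1 call was lost under 3 alternatives, with values from -0.45 to -0.18, and the SMG9 call under 10, down to 0.12.

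Among other parts of the pathway, the listed genes of the exon junction complex and its partners mostly fell with palbociclib. The list holds subunits such as EIF4A3, MAGOH and RBM8A together with partners such as ALYREF, SRRM1, PNN and PYM1. Of 14 tested, 12 fell and none rose with palbociclib in A549, and 13 fell and none rose in SUM159, with median log2 changes of -0.37 and -0.47, against 21.1% and 29% lower among all genes tested. Indisulam raised 11 and lowered 1 in A549 (7 higher with DESeq2), and raised 6 and lowered 3 in SUM159. Among all genes 23.3% and 21.9% were higher with indisulam, and 25.9% and 24.9% were lower. With both drugs 4 rose and 5 fell in A549, and 1 rose and 9 fell in SUM159 (4 and 7 with total-count scaling). Among all genes 27.4% and 32.2% were higher with both drugs, and 30.4% and 33.1% were lower. In A549 the list was close to those shares. ALYREF, an mRNA export adaptor, fell from 113.3 and 104.0 CPM to 56.0 and 53.7 CPM with palbociclib in A549 and from 193.6 and 184.0 CPM to 94.5 and 96.8 CPM in SUM159. It also fell with indisulam, by 0.43 and 0.30. EIF4A3, the helicase that anchors the complex, and its core partner MAGOH fell with palbociclib by 0.28 and 0.57 in A549 and by 0.36 and 0.74 in SUM159. RNPS1, a peripheral component, fell with palbociclib by 0.53 and 0.65 and rose with indisulam by 0.13 and 0.12.

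Of 25 other NMD and decay factors, 14 fell and 5 rose with palbociclib in A549, and 15 fell and 3 rose in SUM159 (14 and 7 with total-count scaling). Among all genes tested 21.1% and 29% were lower with palbociclib, and 22% and 25.5% were higher. Indisulam lowered 7 and raised 7 in A549, and lowered 14 and raised 6 in SUM159, where total-count scaling gave 8 lower and 7 higher. Among all genes 25.9% and 24.9% were lower with indisulam, and 23.3% and 21.9% were higher. In A549 the list was close to those shares. With both drugs 11 fell and 6 rose in A549 (10 and 9 with total-count scaling), and 17 fell and 6 rose in SUM159. Among all genes 30.4% and 33.1% were lower with both drugs, and 27.4% and 32.2% were higher. NCBP1, the large subunit of the nuclear cap-binding complex, fell from 86.5 and 79.6 CPM to 27.3 and 28.8 CPM with both drugs in A549 and from 177.7 and 181.6 CPM to 58.3 and 61.3 CPM in SUM159. Its log2 changes with indisulam alone were -1.09 in both lines. EXOSC10, a nuclear exosome nuclease, fell with both drugs by 0.70 and 0.88, and the ATPase RUVBL2, which supports SMG1 complex assembly, by 0.94 and 0.69.

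Of 20 genes known to give transcripts degraded by NMD, 12 rose and 4 fell with indisulam in A549. In SUM159, 10 rose and 5 fell (7 and 4 with DESeq2, 11 and 3 with total-count scaling). Among all genes tested 23.3% and 21.9% were higher with indisulam, and 25.9% and 24.9% were lower. With palbociclib 2 rose (0 with DESeq2) and 13 fell in A549, and none rose (2 with total-count scaling) and 10 fell in SUM159. Among all genes 22% and 25.5% were higher with palbociclib, and 21.1% and 29% were lower. With both drugs 9 rose and 7 fell in A549, and 4 rose and 12 fell in SUM159 (5 and 8 with total-count scaling). Among all genes 27.4% and 32.2% were higher with both drugs, and 30.4% and 33.1% were lower. PTBP2, a splicing regulator, rose with indisulam from 23.7 and 23.5 CPM to 109.3 and 106.0 CPM in A549 and from 19.3 and 17.1 CPM to 48.1 and 46.3 CPM in SUM159. The splicing factor TRA2B fell with both drugs by 0.92 and 0.87, and SRSF2 by 0.59 and 0.67. Gene counts do not separate the degraded isoforms from the others, so these counts do not measure NMD activity.

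**Figure D4:**
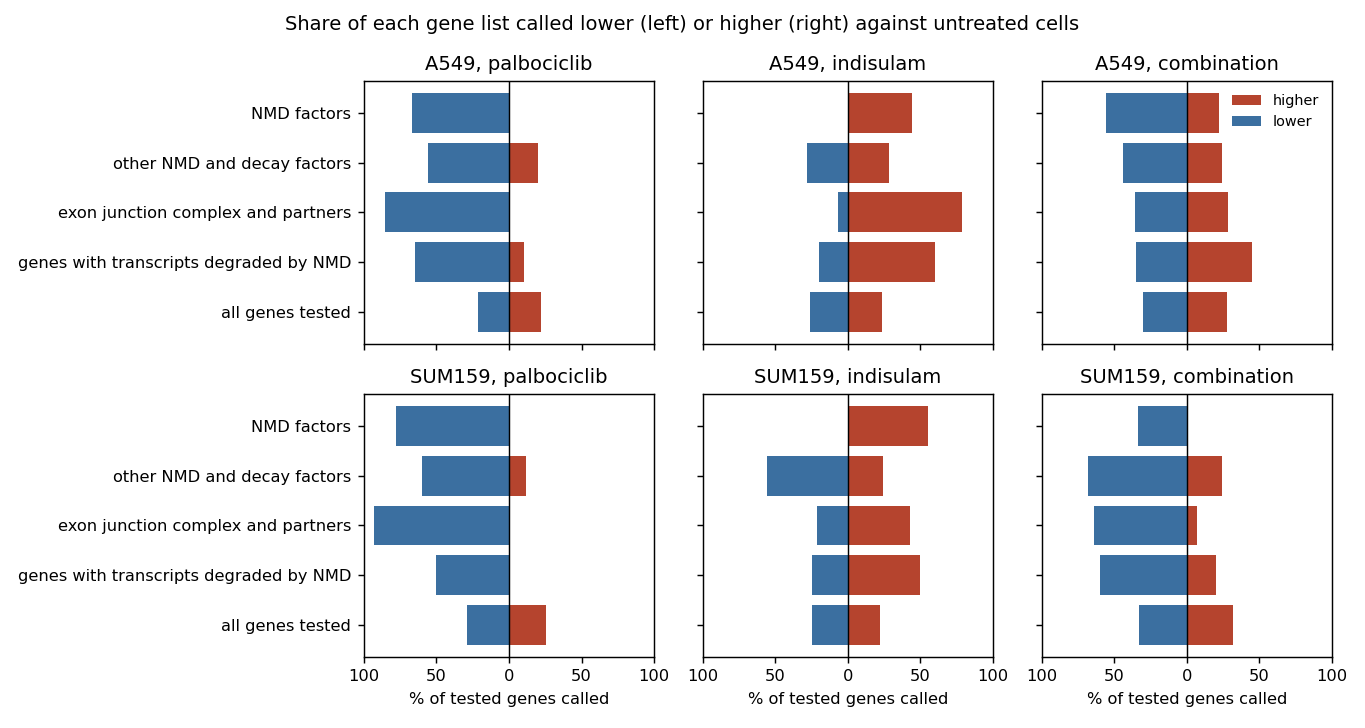
Percent of the tested genes in each list called lower (blue, left) or higher (red, right) against untreated cells, for each line and treatment, with all genes tested as the bottom bar of each panel. The list of exon junction complex genes and partners has the longest blue bar with palbociclib in both lines.

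Across the 16 libraries, each gene centred on the mean of its line, the members did not all vary alike. Pearson r was 0.93 between UPF2 and UPF3B and 0.92 between UPF3B and SMG5, while SMG6 had r between -0.13 and 0.24 with the others. Of 10644 genes with at least 5 CPM on average, UPF3B was most like CASP2 (r = 0.99), and SMG5 most like OSGEPL1 (r = 0.98) and RAD51D. UPF1 was most like DUS3L and CARHSP1, UPF2 like NIPBL and ARID2, and UPF3A like TBC1D20 and TPM4. SMG1 was most like KMT2A and CNOT1, SMG6 like NF2 and PHF6, SMG8 like KLHL18 and KANSL3, and SMG9 like PPP2R3B and UQCC2. With total-count scaling both nearest genes of SMG8 changed, the first of UPF3A became GSE1, and the second changed for UPF1 and SMG5. These values describe libraries that share treatments and scaling.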

How the data were processed

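Poly(A) RNA of the 16 libraries was prepared with a stranded kit and, per the study's methods, aligned to GRCh38 with HISAT2. The submitters' processing notes name HISAT2 2.2.1 and HTSeq. The strand setting and annotation release are not given in the sources used here. The deposited values are raw counts per Ensembl gene, made by the authors without normalization or pooling. Rows that name no gene held 13.2% to 16.4% of counts and were left out. GENCODE release 44 supplied symbols, coordinates and exon lengths and matched 58207 identifiers.

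Counts were tested with edgeR 4.0.16 (R 4.3.3; filterByExpr, TMM, glmQLFit, glmQLFTest) in 1 fit per line with 1 coefficient per group, or in 1 fit of all 16 libraries for differences between lines. P-values were adjusted by Benjamini-Hochberg over all genes tested, with a threshold of 0.05. A departure from additivity is the combination minus palbociclib minus indisulam plus untreated. SE were computed as the log2 change over the root of its F value. At these depths 3 counts equal 0.0880 to 0.164 CPM, which covers counting error only. Alternatives were DESeq2 1.42.0, other scalings and filters, a replicate block and leaving out each library. The procedure was tested on simulated data.

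All 9 members were named in every comparison, with 2 most similar genes each and up to 4 genes per list with the lowest mean rank of adjusted p in the combination; some genes so picked are not reported here. The members and lists were chosen with earlier results of these data known.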

Additional observations from a re-analysis of the deposited data

Results flagged for a closer look

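Differences in response between the lines passed the threshold in 5 cases, tested as interactions in the edgeR fit of all 16 libraries (SUM159 minus A549, log2). For UPF3A they were 0.4187 with palbociclib, 0.2715 with indisulam and 0.4436 with both drugs. For UPF1 the difference with palbociclib was -0.2258, and for SMG9 the difference with both drugs was 0.3519. The UPF3A difference with both drugs was kept under every alternative, between 0.25 and 0.45. The other calls were each lost under some: UPF3A with palbociclib under 4 (range 0.21 to 0.42) and with indisulam under 7 (range 0.20 to 0.33), UPF1 under 3 (range -0.45 to -0.18) and SMG9 under 10 (range 0.12 to 0.42). Libraries whose removal ended a call were, for UPF3A with palbociclib, both untreated and palbociclib replicate 2 of A549, and for UPF1, both untreated and palbociclib replicate 1 of SUM159. For SMG9 they were every A549 library except combination replicate 2, and combination replicate 1 of SUM159. Leaving out any of the 8 A549 libraries moved the UPF1 difference by over 1.5 times, including libraries of treatments outside that comparison, and the cause was not tested.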

How the results depend on the processing

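Of the members' log2 changes under other settings, 640 kept direction and side of the threshold, 45 lost the call, 27 gained it and 22 turned direction; leaving out 1 library at a time gave 810, 81, 16 and 21. These totals cover all members in the treatment comparisons within a line. For departures from additivity and differences between the lines they cover only members that were called before any setting was changed. Calls that other members gained there are not counted. Groups of 2 technical libraries limit all calls. The cause of each change below was not tested.

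The number of members called in the combination against untreated A549 was 7, and 4 with DESeq2 and 3 with total-count scaling. Against palbociclib in A549 it was 3, and 6 with DESeq2 size factors in edgeR, 5 with all 16 libraries in 1 fit and 6 with total-count scaling. The departure from additivity in A549 was called for 1 member, and for 2 with all 16 libraries and 3 without the filter. In SUM159 the combination called 3, and 5 with at least 10 counts in every library. Differences of response called 2 members with palbociclib (1 with DESeq2), 1 with indisulam (0 with DESeq2) and 2 with the combination (4 with DESeq2 size factors and 4 with at least 10 counts).

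The replicate numbers did not pair the samples (correlations of deviations between -0.114 and 0.114). With the replicate block 7 members were called with palbociclib and 4 with indisulam in A549, 6 and 5 in SUM159, and 2 for the departure from additivity in A549. Crossing the numbers in the combination against palbociclib, chosen after seeing the data, gave 3 in A549 and 6 in SUM159.

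Leaving out 1 library gave 5 to 7 members called with palbociclib, 3 to 5 with indisulam, 4 to 7 with the combination, 3 to 6 for the combination against palbociclib, 6 to 8 against indisulam and 0 to 2 departures in A549. In SUM159 the ranges were 6 to 7, 4 to 6, 2 to 4, 5 to 6, 6 to 7 and 0 to 1. They were 6 to 8 for the untreated lines, and 1 to 3, 0 to 1 and 1 to 6 for the differences of response with palbociclib, indisulam and both.

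With total-count scaling SMG6 with indisulam was 0.0176 in A549 and 0.0169 in SUM159, SMG6 with palbociclib in SUM159 0.0259, and SMG1 in the combination against indisulam in A549 0.00870. In the SUM159 combination UPF2 was 0.00340, UPF3B 0.0789, SMG5 0.0893 and SMG8 0.0245 with that scaling, and UPF3A against indisulam 0.00723. UPF3B in the A549 combination was 0.00452 with DESeq2, 0.00430 with its size factors, 0.00506 with all 16 libraries, 0.00803 with at least 10 counts, 0.000128 with the replicate block and 0.0873 with total-count scaling. With all 16 libraries UPF3B was 0.00290 and SMG5 0.0132 in the SUM159 combination. SMG1 in the SUM159 combination against palbociclib was -0.00702 with DESeq2, -0.00777 with its size factors, -0.00107 with all 16 libraries and -0.0243 without the filter, which also put SMG8 at -0.0131. Leaving out 1 library, values that turned ranged from -0.0391 to 0.0268 for SMG6 with indisulam, -0.0280 to 0.0317 for UPF3B with the combination, -0.0188 to 0.106 for UPF3A and -0.132 to 0.0511 for SMG9 against palbociclib in A549. In SUM159 they ranged from -0.338 to 0.0802 for SMG1 with indisulam, -0.0375 to 0.114 for SMG9 with the combination, and -0.0952 to 0.0922 for SMG1 and -0.0433 to 0.0472 for SMG8 against palbociclib.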
